A study of Mus musculus with 35 samples.

Results

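The 10 genes described here encode the 5 NF-κB subunits (Nfkb1, Nfkb2, Rel, Rela and Relb) and 5 proteins that act back on them (Nfkbia, Nfkbiz, Nfkbid, Bcl3 and Tnfaip3). The latter are grouped here as feedback inhibitors. They were chosen by name from the 55401 genes of the mRNA count table, with no measured value in the rule, and all 10 passed the filter on low counts that left 17612 genes for testing. Their mRNA was measured in CD45+ microglia that were immunopanned from whole brains of wild type C57BL/6 mice of 3 ages, namely postnatal day 6 (P6), P15 and 8 weeks. Each mouse gave 1 library, and the labels name no treatment. The comparisons used 4 females and 6 males at P6, 6 females and 6 males at P15, and 6 females and 6 males at 8 weeks, which is every sequenced mouse but P6 female 6. The study removed 1 mouse that stood apart in multidimensional scaling without naming it in the sources used here, and P6 female 6 was kept out of the comparisons here and is described separately. A main aim of the study was to find miRNAs enriched in microglia, and it related their levels to mRNA. It also compared ages and sexes.

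NF-κB proteins act as dimers that bind κB sites in DNA. In a resting cell, inhibitory IκB proteins such as IκBα, the product of Nfkbia, hold the dimers in the cytoplasm, and stimuli that reach the IκB kinase complex cause IκBα to be destroyed so that the dimers enter the nucleus. Several of the genes switched on there act back on the pathway. New IκBα carries dimers back out, and A20 (Tnfaip3) edits the ubiquitin chains that carry the upstream signal. The nuclear IκB proteins IκBζ (Nfkbiz), IκBNS (Nfkbid) and BCL3 bind dimers on DNA and alter which genes they activate. In microglia, the resident macrophages of the brain, this pathway is known for driving cytokine and chemokine genes.

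Between 23316107 and 38965078 fragments were counted per mouse, and the lowest count of any of the 10 genes in the 34 mice was 105 fragments, for Bcl3. The 8 microglial markers were detected in every mouse, and their mean level over the list ran from 9.36 to 10.2 at P6 in log2 CPM, the fragments of a gene as a share of the scaled library total, from 10.4 to 11.4 at P15 and from 10.9 to 11.4 at 8 weeks. Marker lists of other cells were also present. The 7 neural progenitor markers summed to between 646 and 2008 CPM at P6, to between 113 and 890 CPM at P15 and to between 88.2 and 204 CPM at 8 weeks. The 9 macrophage and monocyte markers summed to between 729 and 1559 CPM at P6, to between 309 and 1024 CPM at P15 and to between 368 and 733 CPM at 8 weeks. The 5 oligodendrocyte markers had their highest median at P15, with sums from 689 to 3030 CPM against 165 to 463 CPM at P6 and 295 to 1488 CPM at 8 weeks. Their part in the P15 levels of Rel, Nfkbiz, Bcl3 and Tnfaip3 was not tested. Astrocyte markers reached 1352 CPM and neuron markers 949 CPM in sum. The 6 B cell markers summed to between 259 and 593 CPM, most of it Ighm, and the 4 endothelial markers to at most 231 CPM. Neutrophil markers stayed at or below 202 CPM in sum, and those of T and natural killer cells at or below 53.6 CPM. Xcr1 was the only marker at 0 counts in more than 1 mouse of the 34, with 4 such mice, and Ltf was at 0 in 1 mouse.

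Since feedback inhibitors are themselves NF-κB targets, the promoters of the 10 genes were searched for κB sites. RefSeq promoter sequences on GRCm38.p6 were found for 7 of the genes and for none of Nfkb1, Relb and Nfkbiz. Both strands of the 250 bases before each start were searched for the κB consensus GGGRNNYYCC, where R is A or G, Y is C or T, and N is any base. A match at the same position on both strands counted once, and overlapping matches at different positions counted separately. Of all 32851 promoters, 7.25% held the consensus. Among the 12 promoters of the 7 genes, 7 held the consensus, and these belonged to 5 genes. The sites shown are those nearest to the start in 1 promoter of each of the 5 genes (the 2nd of 3 for Nfkbid and the first for the others), each written 5′ to 3′ on the strand of its gene with 10 bases on either side and the match in capitals.
Nfkbia, chr12:55492657-55492686, minus strand: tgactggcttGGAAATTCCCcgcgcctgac
Tnfaip3, chr10:19015403-19015432, minus strand: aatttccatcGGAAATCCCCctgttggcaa
Nfkbid, chr7:30422215-30422244, plus strand: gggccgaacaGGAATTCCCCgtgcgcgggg
Nfkb2, chr19:46304716-46304745, plus strand: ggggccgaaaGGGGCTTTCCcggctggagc
Rel, chr11:23771041-23771070, minus strand: gtaagcagcgGGAAATCCCCccccctcccc
In Nfkb2 the consensus reads along the strand written, and in the other genes shown it reads along the opposite strand. The match ended 20 bases before the start in Nfkbia, 3 bases before it in Tnfaip3, 172 bases before it in Nfkbid, 2 bases before it in Nfkb2 and 82 bases before it in Rel. The window of Rel holds 1 further match that is shifted by 1 base from the one shown, and the first promoter of Nfkb2 holds 3 matches in all. The promoters shown for Nfkbid and Tnfaip3 hold 2 matches each. The 2nd and the 3rd promoter of Nfkb2 held 1 match each. No consensus match was found in the windows of Rela and Bcl3, which says only that these letters are not in those 250 bases. A match describes the sequence and is no evidence of binding in these cells.

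Levels of different genes were compared as RPKM, which is CPM divided by the exon length of the gene in kilobases. Nfkbia stood far above the others at every age, with a mean of 448 ± 137 RPKM (SD, n = 10) at P6, 461 ± 141 RPKM (n = 12) at P15 and 782 ± 244 RPKM (n = 12) at 8 weeks. It exceeded the next gene in every mouse of each age. Nfkbiz (87.6 ± 32.4 RPKM), Nfkbid (63.7 ± 24.02 RPKM), Tnfaip3 (46.6 ± 16.2 RPKM) and Rela (45.6 ± 9.33 RPKM) followed at P6. Tnfaip3 and Rela could not be ordered there, since Tnfaip3 was the higher in 6 of 10 mice. The remaining subunits and Bcl3 formed the low end, with Rel at 18.1 ± 6.16 RPKM, Nfkb2 at 13.1 ± 3.53 RPKM, Nfkb1 at 11.8 ± 2.83 RPKM, Bcl3 at 9.77 ± 4.25 RPKM and Relb at 8.47 ± 2.48 RPKM.

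At P15 the order below Nfkbia was unsettled. Nfkbid (49.5 ± 16.2 RPKM), Nfkbiz (48.4 ± 17.2 RPKM) and Rela (47.7 ± 9.04 RPKM) differed by less than their SD, and Nfkbid was above Nfkbiz in 5 of 12 mice. Rel, at 10.9 ± 5.17 RPKM, lay under Nfkb2 in 8 of 12 mice, while at P6 it had been above Nfkb2 in every mouse. At 8 weeks Nfkbiz (93.1 ± 22.8 RPKM) again came second in mean and lay above Tnfaip3 in all 12 mice. Nfkbid exceeded Nfkbiz in 8 weeks female 6 (138 against 134 RPKM), and Rela did in 8 weeks male 4 (80.1 against 75.0 RPKM). Tnfaip3 (64.4 ± 21.5 RPKM) was above Nfkbid (60.4 ± 25.5 RPKM) in 9 of 12 mice, and Nfkbid above Rela (54.8 ± 8.89 RPKM) in 6 of 12. Nfkb1 (17.8 ± 1.54 RPKM) and Rel (17.4 ± 6.29 RPKM) were close in mean but not in spread. Bcl3 was the lowest of the 10 genes at P15 and at 8 weeks, with 4.21 ± 1.64 and 5.14 ± 1.79 RPKM.

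**Figure D1:**
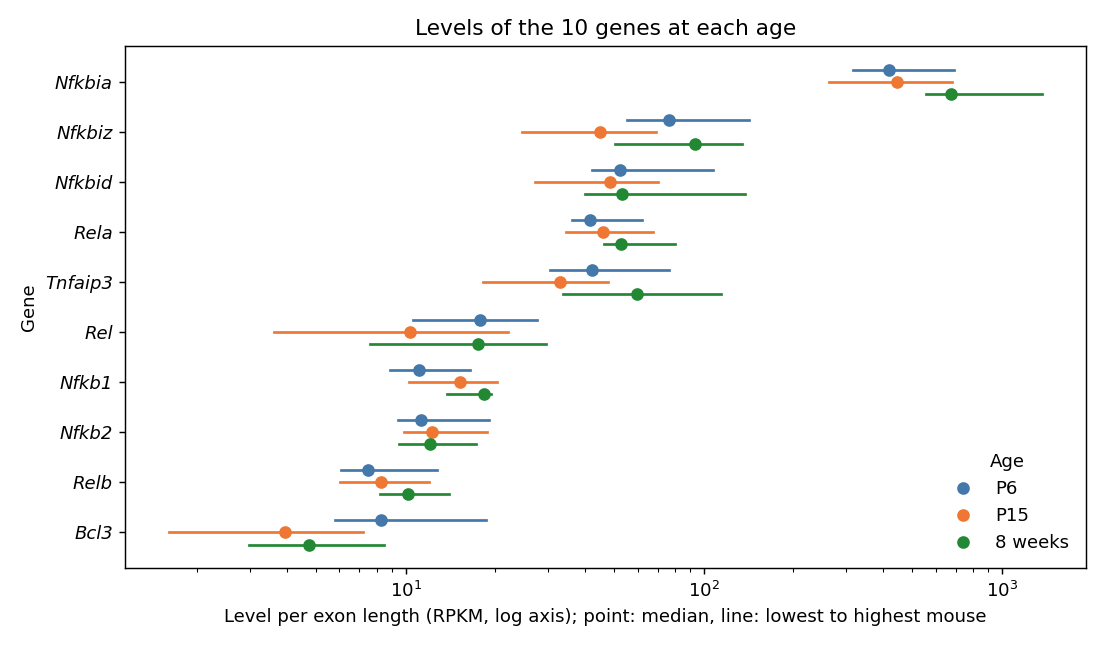
Level of each gene in RPKM on a log axis at P6 (10 mice), P15 (12 mice) and 8 weeks (12 mice), where points are medians and lines run from the lowest to the highest mouse. Nfkbia lies above the other 9 genes at every age, with means from 448 to 782 RPKM, and the Rel line at P15 reaches lower than at the other ages.

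Over the 3 age comparisons, Bcl3, Tnfaip3, Nfkbiz, Nfkbia, Rel and Nfkb1 reached the largest fold changes of the 10 genes, and Nfkb2 had the smallest. From P6 to P15, Rel, Nfkbiz and Bcl3 fell and Nfkb1 rose, so that 4 of 10 genes passed an FDR of 0.05 in edgeR's quasi-likelihood test, where 61.8% of all genes tested passed (30.4% higher and 31.4% lower). From P15 to 8 weeks, Rel, Relb, Nfkbia, Nfkbiz and Tnfaip3 rose and none fell, which is 5 of 10 against 47.9% of all genes (24% higher and 23.9% lower). From P6 to 8 weeks, Nfkb1, Rela, Relb, Nfkbia and Tnfaip3 rose and Bcl3 fell, which is 6 of 10 against 74.4% (37.8% higher and 36.6% lower). The share of the 10 genes that was called was thus below the background in the first and the last comparison and close to it in the second. The 3 comparisons share their mice and are not independent of each other.

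The median log2 fold change (log2FC) of the 10 genes was −0.15 from P6 to P15, 0.33 from P15 to 8 weeks and 0.23 from P6 to 8 weeks, beside −0.014, 0.018 and 0.038 over all genes tested. None of the 10 passed the study's threshold of 2-fold in any of the 3 comparisons, while 9.73%, 4.26% and 23.8% of all genes did. No gene of the 10 had mice of any 2 ages that did not overlap. Between P6 and P15, 5.25% of all genes lay wholly higher at the later age and 7.72% wholly lower, between P15 and 8 weeks these shares were 1.65% and 1.72%, and between P6 and 8 weeks 14.8% and 14.8%. In these bulk samples, fewer cells of a type and less RNA per cell cannot be told apart.

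**Figure D2:**
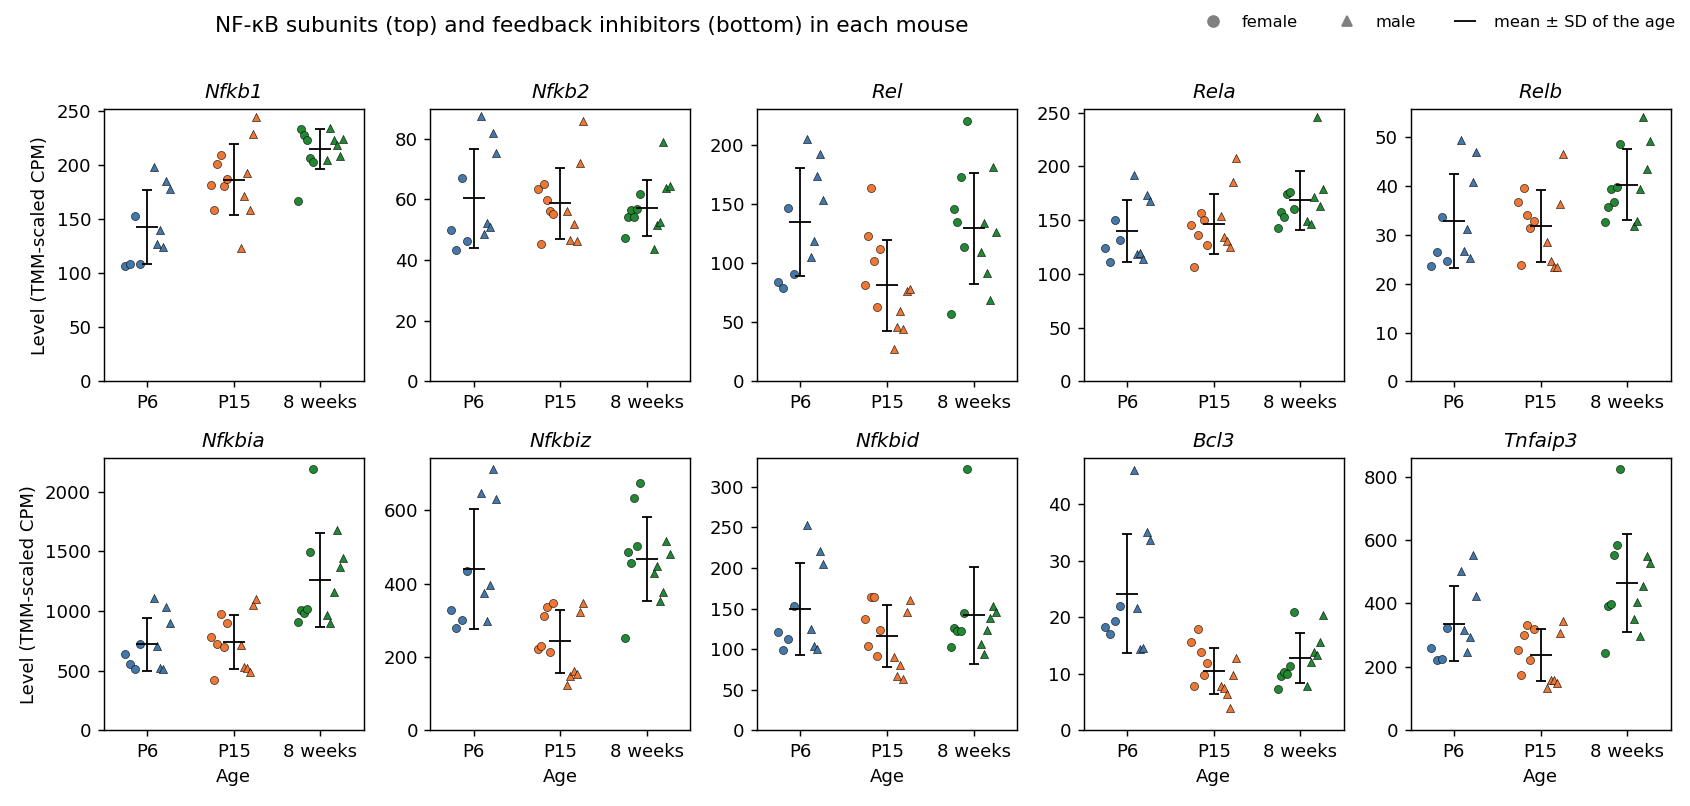
TMM-scaled CPM of each gene in each of 34 mice by age, with females as circles, males as triangles, and the mean ± SD of each age in black. Nfkb1 climbs through the ages, Rel, Nfkbiz, Bcl3 and Tnfaip3 are lowest in mean at P15, and 8 weeks female 6 stands highest for Nfkbia, at 2194 CPM.

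**Figure D3:**
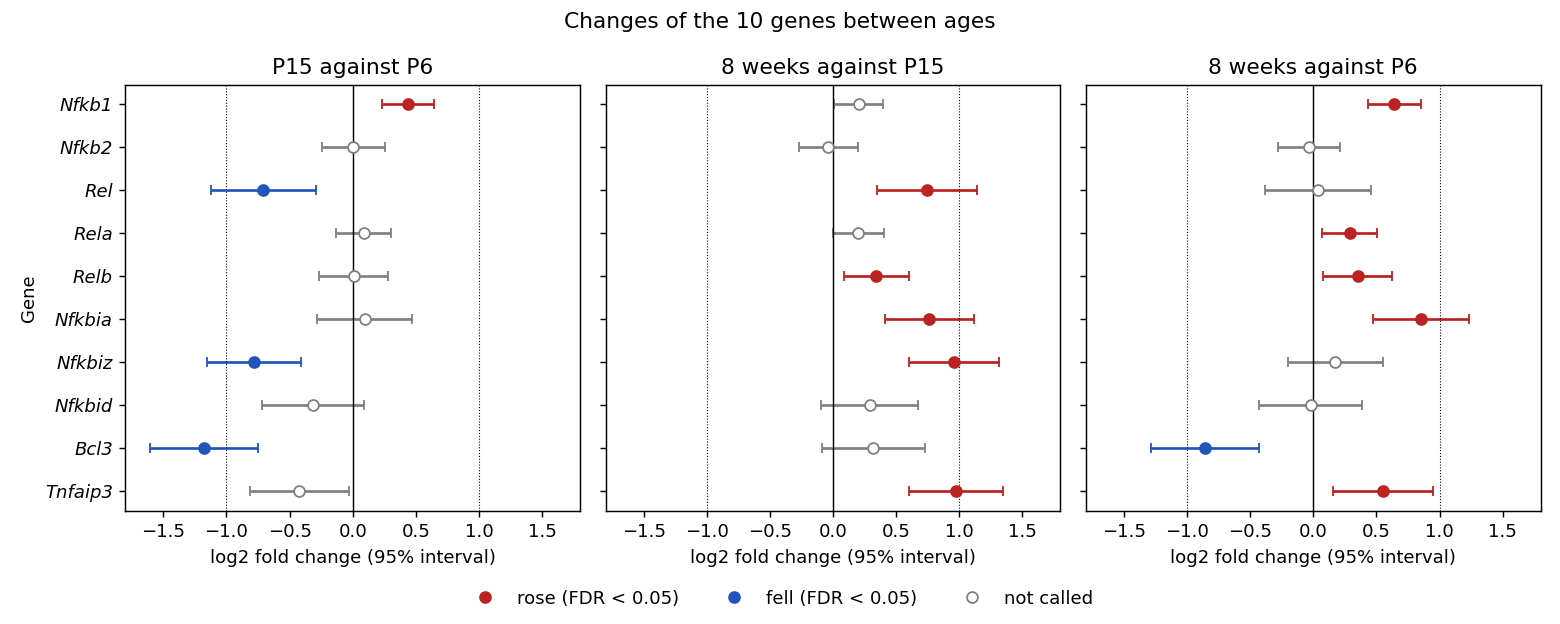
The log2FC of each gene in the 3 age comparisons with 95% intervals from edgeR's quasi-likelihood fit over 34 mice, where filled points passed an FDR of 0.05 and dotted lines mark 2-fold. Bcl3 fell by 1.18 from P6 to P15, Tnfaip3 rose by 0.98 from P15 to 8 weeks, and the interval of Nfkb2 crosses 0 in each panel.

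Among the subunits, Nfkb1, Rela and Relb rose from P6 to 8 weeks, with Nfkb1 rising by the most. Nfkb1 encodes p105, the precursor of the p50 subunit, and lies at chr3:135584655-135691547 on the minus strand, where the gene model Gm43430 overlaps it on the same strand (GENCODE M21, GRCm38). Its lowest, median and highest levels were 107, 133 and 198 CPM at P6, 124, 184 and 245 CPM at P15 and 167, 220.5 and 234 CPM at 8 weeks. The ages overlapped, but 11 of 12 mice at 8 weeks were above every P6 mouse, and the spread narrowed from a coefficient of variation of 23.9% at P6 to 8.64% at 8 weeks. Nfkb1 rose by a log2FC of 0.44 ± 0.10 (SE) from P6 to P15 (FDR = 0.000411, edgeR) and by 0.64 ± 0.10 from P6 to 8 weeks (FDR = 1.46e-06). From P15 to 8 weeks its log2FC was 0.20 ± 0.10 and did not pass (FDR = 0.0782). With the level of immediate-early genes as a covariate, neither rise was called, at 0.18 (FDR = 0.177) and 0.12 (FDR = 0.560). The microglial marker means of the P6 mice lay below those of every older mouse (at most 10.2 against at least 10.4 log2 CPM). Age and marker level therefore cannot be told apart in any change from P6. This holds for the rises of Nfkb1, Rela, Relb, Nfkbia and Tnfaip3 and for the other genes below.

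Rel encodes c-Rel, a subunit with a strong transactivation domain that is best known from lymphocytes and macrophages (chr11:23736847-23770970, minus strand). Its lowest, median and highest levels were 79.0, 133 and 205 CPM at P6, 26.9, 77.4 and 164 CPM at P15 and 56.7, 131 and 221 CPM at 8 weeks. Below every P6 mouse lay 7 of 12 P15 mice, 6 of them males. Across P6, P15 and 8 weeks, the female means were 100.3 ± 31.5, 108 ± 34.99 and 141 ± 55.4 CPM, and the male means 158 ± 40.04, 55.2 ± 20.1 and 119 ± 38.7 CPM, a difference between the sexes that did not pass its own test (joint FDR = 0.406, edgeR). Rel fell by 0.71 ± 0.20 on the log2 scale from P6 to P15 (FDR = 0.00348, edgeR) and rose by 0.75 ± 0.20 from P15 to 8 weeks (FDR = 0.00237). From P6 to 8 weeks the log2FC was 0.038 ± 0.21 (FDR = 0.876), with a 95% interval from −0.38 to 0.46. The fall kept its call with the immediate-early covariate (−1.16, FDR = 0.000228), and the rise did not (0.30, FDR = 0.354). Rel had the widest range of the subunits, 8.20 times between the highest and the lowest of the 34 mice, against 2.02 times for Nfkb2.

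Rela encodes p65, the main activating subunit of the canonical pathway (chr19:5637483-5648130, plus strand). It ran from 111 through a median of 128 to 191 CPM at P6, from 106 through 141 to 208 CPM at P15 and from 143 through 162 to 246 CPM at 8 weeks. The medians climbed slowly and 6 of 10 P6 mice lay below every 8-week mouse. Rela rose by a log2FC of 0.29 ± 0.11 from P6 to 8 weeks (FDR = 0.0171, edgeR), while its log2FC of 0.086 ± 0.11 from P6 to P15 (FDR = 0.502) and of 0.20 ± 0.10 from P15 to 8 weeks (FDR = 0.0976) did not pass. The rise lost its call and turned to −0.33 (FDR = 0.105) with the immediate-early covariate.

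Relb encodes RelB, the partner of p52 in the non-canonical pathway (chr7:19606217-19629438, minus strand). Its lowest, median and highest levels were 23.7, 28.98 and 49.5 CPM at P6, 23.4, 32.1 and 46.5 CPM at P15 and 31.8, 39.4 and 54.3 CPM at 8 weeks. Below the lowest 8-week mouse lay 6 of 10 P6 mice and 6 of 12 P15 mice. Relb rose by 0.34 ± 0.13 from P15 to 8 weeks (FDR = 0.0254, edgeR) and by 0.35 ± 0.13 from P6 to 8 weeks (FDR = 0.0192). Its log2FC from P6 to P15 was 0.0086 ± 0.13 (FDR = 0.961). The calls of Relb and Rela rested on small margins. When single mice were left out, Relb missed the threshold from P15 to 8 weeks without any 1 of 8 weeks females 3 and 5, 8 weeks male 6, P15 females 2, 5 and 6 and P15 males 1, 2 and 3 (FDRs from 0.0512 to 0.0699). From P6 to 8 weeks it missed it without P6 female 2, P6 female 5, P6 male 3 or P6 male 4 (FDRs from 0.0549 to 0.0677), and Rela without P6 female 2, P6 male 3 or P6 male 4 (FDRs from 0.0640 to 0.0866). With libraries scaled to their size alone, neither was called from P6 to 8 weeks (FDR = 0.0768 for Relb and 0.0795 for Rela). With the immediate-early covariate, Relb turned from a called rise into a called fall from P6 to 8 weeks (−0.48, FDR = 0.0432).

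Nfkb2, which encodes p100, the precursor of p52 and itself an IκB-like inhibitor of RelB, gave no call in any age comparison (chr19:46304320-46312385, plus strand, with Psd and AC114539.1 on the other strand). It ran from 43.4 through a median of 51.5 to 87.5 CPM at P6, from 45.2 through 56.1 to 85.8 CPM at P15 and from 43.7 through 55.4 to 78.9 CPM at 8 weeks. The 3 ages covered almost the same range. Its log2FC was 0.0051 from P6 to P15 (95% interval −0.24 to 0.25), −0.038 from P15 to 8 weeks (−0.27 to 0.20) and −0.033 from P6 to 8 weeks (−0.28 to 0.21), with FDRs of 0.974, 0.802 and 0.816 in edgeR. With the immediate-early covariate, by contrast, Nfkb2 was called lower in each of the 3 comparisons. Its log2FCs were then −0.39 (FDR = 0.00615), −0.42 (FDR = 0.00569) and −0.81 (FDR = 0.000311).

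Of the inhibitors, Nfkbia rose late. The gene lies at chr12:55489410-55492647 on the minus strand and carries the promoter κB site shown for it. Its lowest, median and highest levels were 510.4, 671 and 1111 CPM at P6, 424, 719 and 1098 CPM at P15 and 895, 1087 and 2194 CPM at 8 weeks. The first pair of ages covered much the same range, and 6 of 12 mice at 8 weeks exceeded every P15 mouse. Nfkbia rose by a log2FC of 0.76 ± 0.17 from P15 to 8 weeks (FDR = 0.000634, edgeR) and of 0.86 ± 0.19 from P6 to 8 weeks (FDR = 0.000134). From P6 to P15 it was 0.094 ± 0.18 and did not pass (FDR = 0.671). Neither rise of Nfkbia was called with the immediate-early covariate, at 0.27 (FDR = 0.294) from P15 to 8 weeks and at −0.16 (FDR = 0.673), a change of direction, from P6 to 8 weeks.

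Nfkbiz fell from P6 to P15 and rose from P15 to 8 weeks. Nfkbiz (chr16:55811375-55838899, minus strand) ran from 278 through a median of 385 to 713 CPM at P6, from 123 through 225 to 348 CPM at P15 and from 252 through 469 to 674 CPM at 8 weeks. At P15, 7 of 12 mice were below every P6 mouse, and at 8 weeks 11 of 12 were above every P15 mouse. Female means were 335 ± 68.6 CPM at P6 and 277 ± 62.1 CPM at P15, and male means 510 ± 174 and 209 ± 98.7 CPM. This difference between the sexes did not pass its own test (joint FDR = 0.406, edgeR). Nfkbiz fell by 0.78 ± 0.18 on the log2 scale from P6 to P15 (FDR = 0.000469, edgeR) and rose by 0.96 ± 0.18 from P15 to 8 weeks (FDR = 5.06e-05), while from P6 to 8 weeks the log2FC was 0.17 ± 0.18 (FDR = 0.397). With the immediate-early covariate, the fall kept its call (−1.32, FDR = 4.31e-06), the rise just missed the threshold (0.49, FDR = 0.0561), and the value from P6 to 8 weeks became a called fall (−0.83, FDR = 0.0268).

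Tnfaip3 (chr10:19000910-19015657, minus strand) ran from 220.04 through a median of 306 to 552 CPM at P6, from 132 through 237 to 345 CPM at P15 and from 243 through 430.2 to 824 CPM at 8 weeks. At 8 weeks, 10 of 12 mice were above every P15 mouse and 2 above every P6 mouse. Female means were 257 ± 47.3 CPM at P6 and 267 ± 62.6 CPM at P15, and male means 389.6 ± 122 and 208 ± 92.7 CPM. Tnfaip3 rose by a log2FC of 0.98 ± 0.18 from P15 to 8 weeks (FDR = 6.86e-05, edgeR), the largest rise among the 10 genes in any of the 3 comparisons, and of 0.55 ± 0.19 from P6 to 8 weeks (FDR = 0.0115). Its log2FC of −0.42 ± 0.19 from P6 to P15 just missed the threshold (FDR = 0.0553) and passed it in DESeq2 (FDR = 0.0471) and in limma-voom (FDR = 0.0380). With the immediate-early covariate, neither rise of Tnfaip3 was called. The first was then 0.40 (FDR = 0.117), below the 0.49 of Nfkbiz, and the second turned to −0.65 (FDR = 0.0719), while the value from P6 to P15 became a called fall (−1.06, FDR = 5.72e-05).

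Bcl3 was the gene that stayed down. It lies at chr7:19808462-19822770 on the minus strand, with the antisense models Gm16175 and Gm16174 on the other strand, and the fragments were counted by strand. Its lowest, median and highest levels were 14.4, 20.5 and 46.0 CPM at P6, 3.98, 9.72 and 17.9 CPM at P15 and 7.38, 11.7 and 20.9 CPM at 8 weeks. Below every P6 mouse lay 10 of 12 P15 mice and 9 of 12 mice at 8 weeks. Bcl3 fell by 1.18 ± 0.21 on the log2 scale from P6 to P15 (FDR = 1.55e-05, edgeR), the largest change among the 10 genes, and by 0.86 ± 0.21 from P6 to 8 weeks (FDR = 0.000503). Against a threshold of 2-fold, the fall to P15 had an FDR of 0.456. With the immediate-early covariate, the log2FCs were −1.77 (FDR = 2.13e-07) and −2.02 (FDR = 2.04e-05), and both passed 2-fold. Median sums at P6 and 8 weeks were 993 and 486 CPM for macrophage and monocyte markers and 1667 and 100 CPM for neural progenitor markers. Their part in the falls of Bcl3 was not tested.

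Nfkbid (chr7:30421732-30428746, plus strand) gave no call. It ran from 99.3 through a median of 123 to 253 CPM at P6, from 63.7 through 113 to 165 CPM at P15 and from 93.8 through 125 to 323 CPM at 8 weeks. The highest value belonged to 8 weeks female 6, and the next mouse of that age had 153 CPM. The log2FC of Nfkbid was −0.31 ± 0.20 from P6 to P15 (FDR = 0.173, edgeR), 0.29 ± 0.19 from P15 to 8 weeks (FDR = 0.200) and −0.021 ± 0.20 from P6 to 8 weeks (FDR = 0.929). Without 8 weeks female 6, the value from P15 to 8 weeks was 0.12 (FDR = 0.564). With the immediate-early covariate, by contrast, Nfkbid was called lower from P6 to P15 (−0.88, FDR = 0.00159) and from P6 to 8 weeks (−1.09, FDR = 0.00790). Scaling to library size alone also gave a called fall from P6 to P15 (−0.45, FDR = 0.0329).

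Levels of mRNA relative to Rela were followed as a ratio of CPM within each mouse, as a description without a test. The ratio of Nfkbia to Rela had a median of 5.25 in P6 mice, 4.96 in P15 mice and 6.61 in 8-week mice, and it ran from 3.43 to 5.95 at P6 and from 5.83 to 13.7 at 8 weeks, so that these ages barely overlapped. That of Nfkbiz to Rela was lowest at P15, with a median of 1.59 against 3.22 at P6 and 2.93 at 8 weeks. The ratio of Tnfaip3 to Rela followed the same course, with medians of 2.49, 1.64 and 2.69. Among subunits, the ratio of Rel to Rela had a median of 0.949 in P6 mice, 0.439 in P15 mice and 0.807 in 8-week mice, whereas that of Relb to Rela stayed near 0.231, 0.214 and 0.228.

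Between males and females, none of the 10 genes was called at any age. In edgeR, 9 of all genes (0.0511%) passed in P6 mice, 12 (0.0681%) in P15 mice and 20 (0.114%) in 8-week mice. At an unadjusted p below 0.05 there were 5 of the 10 genes at P6, where 7.1% of all genes passed, 2 at P15, where 18.2% passed, and 0 at 8 weeks, where 2.94% passed. DESeq2 and limma-voom also called none of the 10 at any age.

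At P6 the male means were higher for all 10 genes, by log2FCs from 0.19 for Rela to 0.66 for Rel, with FDRs of at least 0.696 in edgeR. Rel measured 84.2, 79.0, 147 and 91.1 CPM in the 4 females and from 105 through a median of 164 to 205 CPM in the 6 males. Nfkbia measured 638, 552, 513 and 723 CPM in the females and from 510.4 through 801 to 1111 CPM in the males. The sexes overlapped for both genes. P6 males 1, 5 and 6 were the 3 highest P6 mice for 9 of the 10 genes, all but Rel, with Nfkbia at 1111, 1029.7 and 898 CPM and Bcl3 at 46.0, 35.1 and 33.6 CPM against at most 22.0 CPM in the other P6 mice. These mice also had the 3 highest mean levels of microglial markers at P6 (10.03, 10.2 and 9.97 log2 CPM) and the 3 lowest of neural progenitor markers (5.57, 5.29 and 5.95 log2 CPM, against 6.56 to 7.29 in the other 7 mice). The part of these markers in the difference between sexes was not tested.

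At P15, Rel was the gene that differed most between the sexes, and in the other direction. It ran from 63.2 through a median of 107 to 164 CPM in females and from 26.9 through 52.8 to 78.1 CPM in males. Of the 6 males, 4 were below every female. The log2FC of males against females was −0.96 ± 0.28 (unadjusted p = 0.00149, FDR = 0.252, edgeR). For Bcl3 it was −0.67 ± 0.29 (unadjusted p = 0.0261, FDR = 0.256), with 7.85 to 17.9 CPM in females and 3.98 to 12.8 CPM in males. P15 males 1 to 4 were also low for Nfkbiz (123 to 162 CPM) and Tnfaip3 (132 to 158 CPM), where P15 males 5 and 6 had 322 and 348 CPM of Nfkbiz and 307 and 345 CPM of Tnfaip3. The same split ran through other lists. In P15 males 1 to 4 against 5 and 6, oligodendrocyte markers summed to 1335 to 3030 CPM against 706 and 1055 CPM, astrocyte markers to 602 to 1094 CPM against 293 and 179 CPM and neural progenitor markers to 272 to 890 CPM against 133 and 113 CPM, and the immediate-early mean was 8.43 to 8.69 log2 CPM against 9.28 and 9.52. Their part in the low levels was not tested. At 8 weeks the log2FCs ran from −0.30 for Nfkbid to 0.25 for Bcl3, all with an FDR of 1 in edgeR.

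The age by sex interaction was tested directly, and 0 of 17612 genes passed an FDR of 0.05 in the joint edgeR test, with 2083 (11.8%) at an unadjusted p below 0.05 and 23 genes called by DESeq2. Rel had the smallest joint p among the members (unadjusted p = 0.00217, FDR = 0.406, edgeR quasi-likelihood test). Its change from P6 to P15, male minus female, was −1.62 on the log2 scale (unadjusted p = 0.000511, FDR = 0.152). Nfkbiz, Bcl3 and Tnfaip3 had joint unadjusted p-values of 0.0282, 0.0192 and 0.0450 with FDRs from 0.406 to 0.417, and the remaining 6 genes had unadjusted p-values of at least 0.0953.

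The 10 genes varied together from mouse to mouse. Each gene's log2 CPM was taken as a deviation from the mean of its age and sex group, and the 45 pairs of genes were correlated over 34 mice, as a description. All 45 correlations were positive, from 0.180 to 0.942 with a median of 0.702, and 39 were above 0.5. Of the other genes tested, between 6.54% (for Nfkbid) and 19.6% (for Nfkb1) had a correlation above 0.5 with a given gene of the 10. The points share library, depth scaling and cell composition.

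The subunits of the non-canonical pathway were the tightest pair, Nfkb2 with Relb at r = 0.942. Nfkbiz with Tnfaip3 (0.927), Nfkb2 with Rela (0.911), Nfkbia with Nfkbid (0.898) and Nfkbid with Bcl3 (0.892) came next. Rel was the odd one out. Its correlations were 0.180 with Rela, 0.267 with Nfkbia, 0.367 with Relb and 0.418 with Nfkb2, while those with Nfkbiz (0.755), Tnfaip3 (0.647) and Nfkb1 (0.643) were higher.

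**Figure D4:**
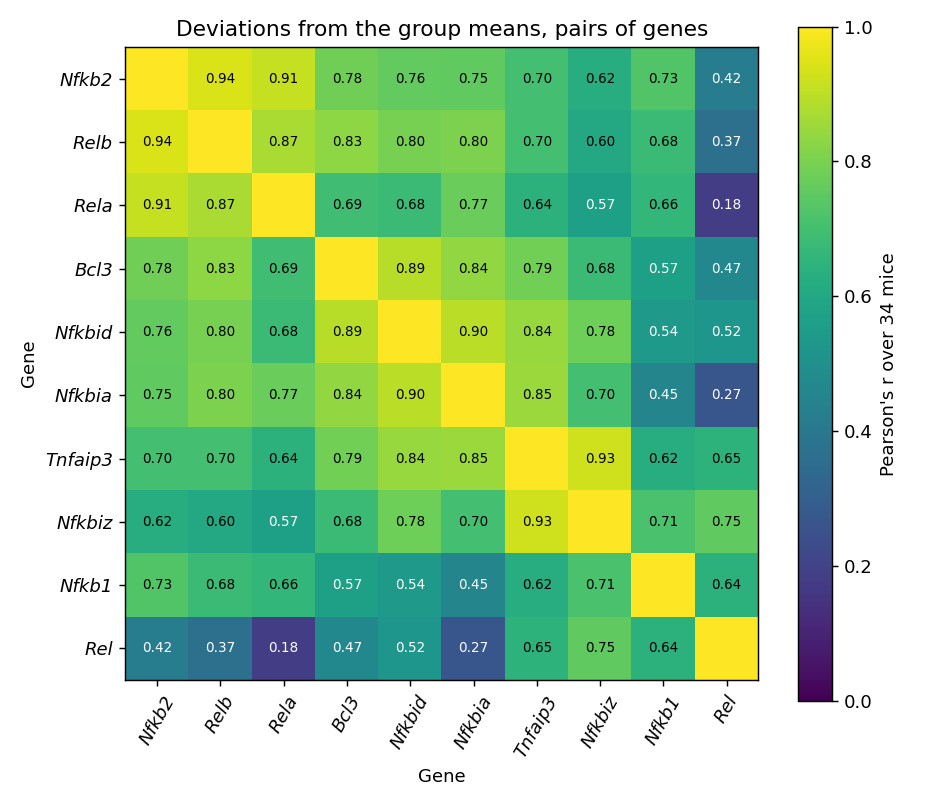
Pearson's r between deviations from the age and sex group means for every pair of the 10 genes over 34 mice, on a color scale from 0 to 1. Nfkb2, Relb and Rela form a block of values from 0.871 to 0.942, and the row of Rel holds the lowest values, down to 0.180 with Rela.

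The genes outside the 10 that deviated most like each member were listed by Pearson's r over the same 34 mice. For Nfkbia they were Nuak2, a stress-activated kinase (0.931), Dusp2, a MAP kinase phosphatase (0.914), and Tnf, the cytokine tumour necrosis factor (0.911). For Tnfaip3 they were the transcription factors Tgif1 (0.941) and Klf10 (0.897) and the kinase Map3k8 (0.871). For Nfkbiz they were Tgif1 (0.914), Il1a, which encodes interleukin 1 alpha (0.905), and Plagl2 (0.869). Nfkbid went with Rasgef1b (0.929), Klf10 (0.923) and Nuak2 (0.921), and Bcl3 with Nuak2 (0.899), the IκB gene Nfkbie (0.893) and the chemokine gene Cxcl16 (0.887).

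The subunits had other neighbours. Rela went with Pxn (0.951) and Vasp (0.946), which encode the adhesion and actin proteins paxillin and VASP, and with Cln8 (0.939). Nfkb2 went with Mef2d (0.956), Rhbdf2 (0.936) and Slc15a3 (0.917), and Relb with Rhbdf2 (0.934), Tubb6 (0.920) and Litaf (0.918). For Nfkb1 they were Eaf1 (0.932), Blnk (0.931) and Ggta1 (0.931). Rel went with Etf1, the translation release factor eRF1 (0.942), Gnl3 (0.937) and Zfp655 (0.935).

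The immediate-early genes, which cells switch on within minutes of many stimuli, tissue dissociation included, were followed beside the 10 genes as a list of 22 that holds none of them. The highest by mean level were Rhob, Zfp36, Junb and Jun. Between P6 and P15, 10 of the 22 rose and 3 fell, from P15 to 8 weeks 14 rose and 0 fell, and from P6 to 8 weeks 17 rose and 1 fell, with median log2FCs of 0.26, 0.53 and 0.80, where 30.4%, 24% and 37.8% of all genes rose. The mean level of the list ran from 7.80 to 8.68 log2 CPM at P6, from 8.43 to 9.52 at P15 and from 8.90 to 9.81 at 8 weeks, so that every mouse at 8 weeks was above every P6 mouse.

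Within the groups, mice with higher immediate-early levels had higher levels of each of the 10 genes. Pearson's r of the deviations over 34 mice ran from 0.450 for Rel (Spearman's coefficient 0.341) to 0.694 for Nfkb2 (Spearman's 0.685), with permutation p-values adjusted over the 10 relations of at most 0.00726 for r and 0.0489 for Spearman's coefficient. The unadjusted permutation p-values were 0.00726 and 0.0489 for Rel and at most 0.00053 and 0.00429 for the other 9 genes. Of 17590 genes outside the list, 12.4% had an r of at least that of Rel and 3.37% at least the median of the 10 genes (0.595). P15 male 6 and 8 weeks female 1 lay farthest from the median of the list. Without them r was between 0.392 and 0.633 for the other 9 genes and 0.274 for Rel, whose relation rests on them. With libraries scaled to their size alone, r ran from 0.362 for Nfkb1 to 0.546 for Tnfaip3 (adjusted permutation p of at most 0.0352).

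With the immediate-early level in the fit as a covariate, which was added after the data were seen, all 10 log2FCs were lower in all 3 age comparisons. Between P6 and P15, 0 genes rose and 7 fell, where 25.6% of all genes were called higher and 25.8% lower (51.4% in all). Of the 10 genes, Bcl3 alone passed 2-fold (7.46% of all genes). Tnfaip3 was at −1.06 (FDR = 5.72e-05), Nfkbid at −0.88 (FDR = 0.00159) and Bcl3 at −1.77 (FDR = 2.13e-07) in edgeR. From P15 to 8 weeks, none of the 5 rises was called. Nfkbiz had a log2FC of 0.49 (FDR = 0.0561), Tnfaip3 0.40 (FDR = 0.117), Rel 0.30 (FDR = 0.354) and Nfkbia 0.27 (FDR = 0.294). Nfkb2 fell by 0.42 (FDR = 0.00569). Of all genes, 13.3% were called higher and 15.8% lower (29% in all). None of the 10 passed 2-fold there (1.71% of all genes). From P6 to 8 weeks, 0 rose and 5 fell, where 24.3% of all genes were called higher and 23.9% lower (48.1% in all). Bcl3 alone passed 2-fold (12.1% of all genes), and Nfkbia was at −0.16 (FDR = 0.673). The 5 were Nfkb2 (−0.81, FDR = 0.000311), Nfkbid (−1.09, FDR = 0.00790) and Nfkbiz (−0.83, FDR = 0.0268), none of which had a call there without the covariate, Bcl3 (−2.02, FDR = 2.04e-05), which had been called lower, and Relb, which had been called higher. Since the P6 and 8-week mice did not overlap in this level, age and the immediate-early level cannot be told apart in that comparison. The P6 and P15 mice overlapped only from 8.43 to 8.68 log2 CPM, so that age and this level can be told apart only in part there.

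**Figure D5:**
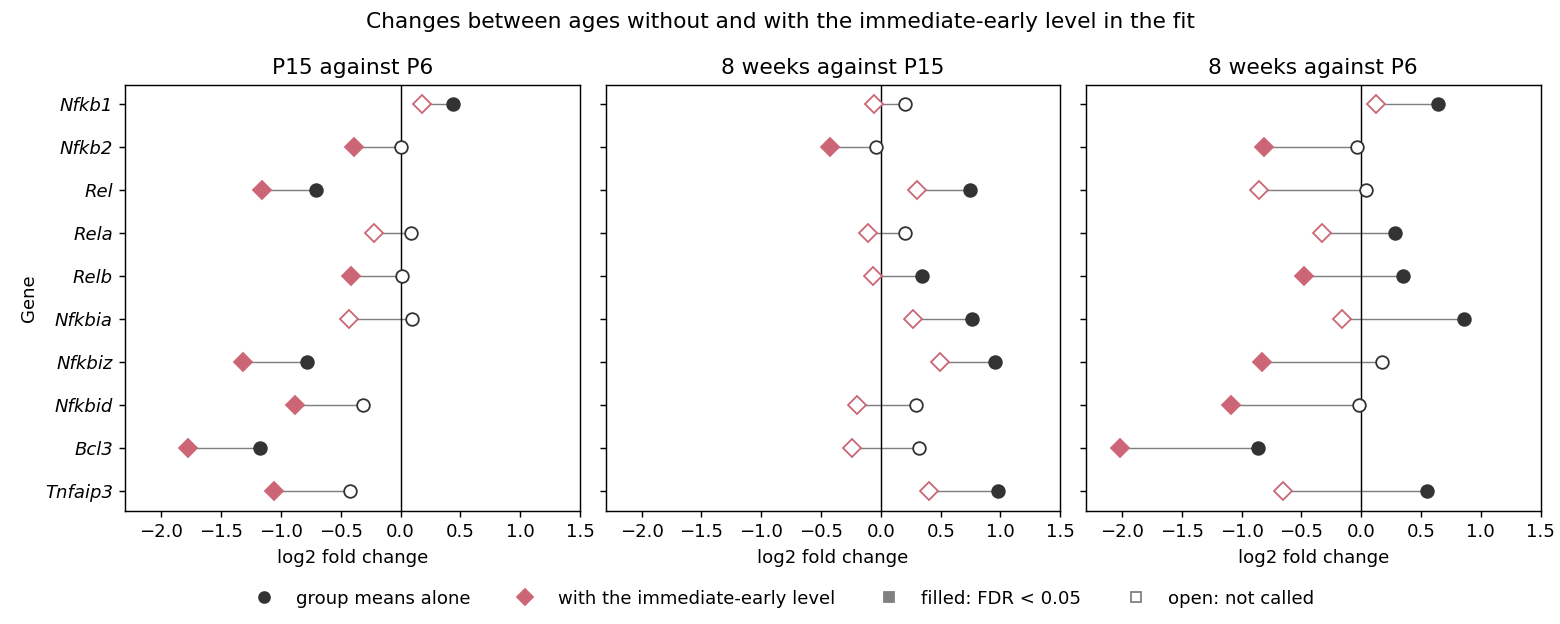
The log2FC of each gene in the 3 age comparisons from the edgeR fit of group means alone (circles) and with the mean immediate-early level of each mouse as a covariate (diamonds), filled where the FDR was below 0.05. Every diamond lies to the left of its circle, and the 5 rises from P15 to 8 weeks became open symbols.

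Levels of the 10 genes also moved with the markers of the cells in each sample, in relations added after the data were seen. Over the 34 mice, deviations of the microglial marker mean had r from 0.388 (Rel) to 0.843 (Nfkb1) with the 10 genes, where 28.1% of genes outside the list had an r of at least 0.388. Those of the neural progenitor mean had r from −0.787 (Nfkb1) to −0.333 (Rel), where 32.1% of genes were at or below −0.333. Spearman's coefficient ran from 0.268 to 0.811 and from −0.756 to −0.221. Adjusted over these 20 relations, permutation p-values of r were at most 0.0254, except for Rel with the neural progenitor mean (0.0548), and those of Spearman's coefficient were at most 0.0208 except for Rel (0.133 and 0.210), and unadjusted p-values were at most 0.0241 and 0.0187 with the same exceptions (0.0548 for r, 0.126 and 0.210 for Spearman's coefficient). Without the 2 mice farthest from the median of the marker mean, r of Rel became 0.313 and −0.173, and the other r values were between 0.484 and 0.790 and between −0.743 and −0.488. With the microglial marker mean as a covariate, 4 of the 5 rises from P15 to 8 weeks were still called, with log2FCs of 0.62 for Rel, 0.63 for Nfkbia, 0.75 for Nfkbiz and 0.80 for Tnfaip3 (FDRs of at most 0.0108 in edgeR), where 22.9% of all genes were called higher. Relb, at 0.23, was not (FDR = 0.109). This covariate was not run against P6, whose marker means do not overlap those of the later ages.

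The rest of the pathway was followed in 5 lists of 86 genes, whose counts stand beside all genes tested, of which 30.4% rose and 31.4% fell from P6 to P15, 24% and 23.9% from P15 to 8 weeks, and 37.8% and 36.6% from P6 to 8 weeks. Of the 23 genes of IκB kinase signalling, 9 rose and 4 fell from P6 to P15, 6 rose and 0 fell from P15 to 8 weeks, and 12 rose and 3 fell from P6 to 8 weeks, with median log2FCs of 0.14, 0.085 and 0.21. Map3k14, which encodes NIK, the kinase of the non-canonical pathway, rose from 20.003 ± 3.64 CPM at P6 through 49.0 ± 9.10 CPM at P15 to 50.3 ± 7.40 CPM at 8 weeks, which is 1.35 ± 0.11 on the log2 scale between the outer ages (FDR = 1.32e-12, edgeR). The adaptor gene Traf5 rose from 10.3 ± 2.67 through 20.5 ± 4.22 to 29.5 ± 2.81 CPM, by 1.57 ± 0.12 (FDR = 4.41e-13). With these, 2 of the 23 genes were past 2-fold from P6 to 8 weeks, where 23.8% of all genes were.

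Among the 16 receptors, ligands and adaptors, 13 were tested, and 9 of them rose and 2 fell from P6 to P15, 6 rose and 0 fell from P15 to 8 weeks, and 8 rose and 0 fell from P6 to 8 weeks. Tnfsf13b, the ligand BAFF, had the largest rise, from 0.795 ± 0.393 CPM at P6 to 18.5 ± 4.18 CPM at 8 weeks (log2FC 4.68 ± 0.29, FDR = 2.40e-15, edgeR). Ltb, which encodes lymphotoxin beta, rose from 2.699 ± 0.744 to 11.3 ± 3.16 CPM (2.10 ± 0.17, FDR = 1.42e-12). It is known from lymphocytes, and the summed markers of T and natural killer cells went from 1.97 to 4.63 CPM at P6 to 10.9 to 53.6 CPM at 8 weeks, whose part in this rise was not tested. Tlr4, the receptor for lipopolysaccharide, rose from 22.7 ± 6.22 to 73.7 ± 18.0 CPM (1.79 ± 0.18, FDR = 1.62e-10). The 8 microglial markers rose by a median log2FC of 1.56 from P6 to 8 weeks. Their part in the changes of the pathway lists was not tested.

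Of the 12 partners of A20 and other negative regulators, 5 rose and 1 fell from P6 to P15, 7 rose and 0 fell from P15 to 8 weeks, and 6 rose and 2 fell from P6 to 8 weeks, with median log2FCs of 0.051, 0.28 and 0.36. Tnip3, which encodes an A20-binding protein, was past 2-fold from P6 to 8 weeks at a low level (0.216 ± 0.143 to 0.961 ± 0.301 CPM, log2FC 2.12 ± 0.44, FDR = 6.92e-05, edgeR). The 6 other IκB genes and their regulators split, with 1 up and 4 down from P6 to P15, 2 up and 2 down from P15 to 8 weeks, and 2 up and 3 down from P6 to 8 weeks.

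Of 29 target genes, 28 were tested. Between P6 and P15, 3 rose and 16 fell, from P15 to 8 weeks 15 rose and 2 fell, and from P6 to 8 weeks 9 rose and 6 fell, with median log2FCs of −0.49, 0.65 and 0.12. Between the outer ages, 2 were past 2-fold higher and 4 past 2-fold lower, which is 6 of 28 where 23.8% of all genes were past 2-fold. The chemokine gene Ccl5 rose from 1.28 ± 1.22 to 11.6 ± 7.26 CPM (log2FC 3.54 ± 0.36, FDR = 2.14e-10, edgeR), and the cytokine gene Il6 from 0.676 ± 0.376 to 5.38 ± 1.41 CPM (3.18 ± 0.27, FDR = 3.49e-12). Cxcl10 fell from 113 ± 48.5 to 31.3 ± 10.5 CPM (−1.62 ± 0.19, FDR = 5.43e-09) and Cxcl1 from 8.17 ± 4.59 to 2.20 ± 0.801 CPM (−1.803 ± 0.26, FDR = 2.37e-07). T and natural killer cells are known to express Ccl5 as well, and the part of their markers, which rose as given beside Ltb, in the rise of Ccl5 was not tested.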

How the data were processed

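CD45+ microglial mRNA was sequenced from 35 mice, 1 library per mouse. According to the study's methods and the submitters' processing notes, brains were digested with papain, cells were immunopanned, directional libraries were read as paired ends, STAR placed the reads on the GRCm38/mm10 genome, and featureCounts assigned fragments to genes by strand. The notes also name fastp 0.20.0, without its role for these libraries. What the authors deposited are raw counts per gene, neither filtered nor normalised. The annotation release is not given in the sources used here, so genes were named and measured for length with GENCODE M21 (55141 of 55401 identifiers matched). No batch is named in the labels, no 2 mice of the same group were copies (lowest chi-square per gene 11.8 over 85 pairs), and replicates are separate mice.

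The filter on low counts kept genes that reached 0.5 CPM in 5 mice or more. Counts were scaled by TMM and fitted in edgeR 4.0.16 (R 4.3.3) by quasi-likelihood, robust, with 1 mean for each of 6 age and sex groups. Genes were called at a Benjamini-Hochberg FDR below 0.05 over all genes, two-sided, with glmTreat for the 2-fold threshold. Levels are CPM on TMM-scaled library sizes, RPKM divides these by exon length, and log2 CPM adds a prior count of 2. Correlations used 100000 permutations (scipy 1.17.1). Alternatives were DESeq2 1.42.0, limma-voom (limma 3.58.1), other scalings and filters, all 35 mice, fits of the compared groups alone or without sex, the replicate block, each mouse left out and 2 covariates. Scripts were tested on simulated data. The members and lists were chosen with earlier results of these data known. All 10 members are named, together with up to 4 genes per pathway list past 2-fold from P6 to 8 weeks with the largest changes, the 3 genes most like each member, and the 4 highest immediate-early genes. Protein sequences were not used here.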

Additional observations from a re-analysis of the deposited data

Results flagged for a closer look

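In 60 sets of values (10 genes in 6 age and sex groups), 4 had a mouse whose gap to its nearest neighbour was too large for the range of its group, where chance gives about 1 in 20. They fell in 3 mice. P6 female 3 had 153 CPM of Nfkb1, and the next of the 4 P6 females had 108 CPM. At 8 weeks, male 4 had 246 CPM of Rela against 179 CPM in the next of 6 males. Female 6 of that age had 323 CPM of Nfkbid against 145 CPM in the next of 6 females, and 20.9 CPM of Bcl3 against 11.4 CPM. The same female had the highest Nfkbia (2194 CPM) and Tnfaip3 (824 CPM) of all 34 mice, with an immediate-early level of 9.60 log2 CPM inside the range of its age.

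P6 female 6, which took no part in the comparisons, had lower levels of all 10 genes than each of the other 10 P6 mice. It measured 68.1 CPM of Nfkb1, 27.2 CPM of Nfkb2, 48.3 CPM of Rel, 76.8 CPM of Rela and 16.5 CPM of Relb. Among the inhibitors it measured 290.0 CPM of Nfkbia, 193 CPM of Nfkbiz, 67.4 CPM of Nfkbid, 10.4 CPM of Bcl3 and 134 CPM of Tnfaip3. Its microglial marker mean was 8.21 log2 CPM, below the 9.36 to 10.2 of the other P6 mice, its neuron markers summed to 1533 CPM against at most 949 CPM in them, and its immediate-early level was 7.26 log2 CPM against at least 7.80. The part of these markers in its low levels was not tested.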

How the results depend on the processing

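Calls of the 10 genes were recomputed with all 35 mice, other scalings and filters, the replicate block, the compared groups alone, age without sex, limma-voom, DESeq2 and each mouse left out. The immediate-early and microglial covariates were chosen after seeing the data. Each of the 10 genes had at least 105 counts in every one of the 34 mice. The cause of the changes was not tested.

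Scaling to library size alone moved the median of all genes to −0.140 from P6 to P15 and to −0.103 from P6 to 8 weeks, and under it 5 genes fell in the first comparison (Nfkbid and Tnfaip3 added), where 38% of all genes fell, and 3 rose in the last (Rela and Relb lost), where 32.2% of all genes rose. Relb was also lost from P6 to 8 weeks in the fit of age without sex (FDR = 0.0537). Tnfaip3 from P6 to P15 passed under library size, the filter of 10 counts in every mouse, age without sex, limma-voom and DESeq2, with FDRs from 0.00525 to 0.0471. Nfkb1 rose from P15 to 8 weeks under library size (FDR = 0.0318) and with the groups alone (FDR = 0.0326), and Rela under library size (FDR = 0.0276). With the immediate-early level, 0 genes rose and 7 fell from P6 to P15 with 1 past 2-fold, 0 rose and 1 fell from P15 to 8 weeks, and 0 rose and 5 fell from P6 to 8 weeks with 1 past 2-fold. The shares of all genes under that fit stand with its results above. Tnfaip3 passed from P6 to P15, with FDRs from 0.0124 to 0.0482, when any 1 of 11 mice was left out (8 weeks females 1 and 6 and male 4, P15 female 4 and males 5 and 6, P6 females 2 and 3 and males 2, 3 and 4). Nfkb1 passed from P15 to 8 weeks without 8 weeks female 1, 8 weeks male 4, P15 male 5 or P15 male 6 (FDRs from 0.0173 to 0.0498), and Rela without P15 male 6 (FDR = 0.0309). Leaving out mice gave 3 to 5 rises from P6 to 8 weeks, with 3 without P6 female 2, P6 male 3 or P6 male 4. Without these mice in turn, 6196 of 17546, 6256 of 17551 and 6315 of 17557 genes rose, against 6654 of 17612 with all 34 mice. Over all genes, 10 counts in every mouse left 967, 306 and 2433 genes past 2-fold from P6 to P15, P15 to 8 weeks and P6 to 8 weeks, against 1713, 751 and 4200, and limma-voom left 398 in the second. Between the sexes at P6, P15 and 8 weeks, the filter of 10 counts called 1, 2 and 8 genes, DESeq2 16, 36 and 48, and the groups alone 7 at P15 and 11 at 8 weeks, against 9, 12 and 20.

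Labels give the groups the same mouse numbers, but 22 of 80 same-numbered pairs correlated above 0.1 (median 0.00579) and 6 of 34 mice matched their own number best, so the numbers were not taken as a pairing. With the replicate block, 1 gene rose and 4 fell from P6 to P15 (Tnfaip3 added, FDR = 0.00516), and the counts of the other comparisons did not change. The block turned Nfkb2 (−0.021) and Relb (−0.031) from P6 to P15, Rel from P6 to 8 weeks (−0.017), and males against females for Nfkb1 at P15 (−0.014) and Nfkbia at 8 weeks (0.031).

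Other log2FCs that changed sign came from genes without a call or from the immediate-early fit. For P15 against P6, library size gave −0.12 for Nfkb2, −0.044 for Rela, −0.12 for Relb and −0.045 for Nfkbia, the filter of 10 counts −0.021 for Nfkb2 and −0.018 for Relb, age without sex −0.040 and −0.049 for the same genes, and the immediate-early fit −0.39 for Nfkb2, −0.22 for Rela, −0.42 for Relb and −0.43 for Nfkbia. From P15 to 8 weeks, that fit gave −0.056 for Nfkb1, −0.10 for Rela, −0.062 for Relb, −0.20 for Nfkbid and −0.24 for Bcl3. From P6 to 8 weeks, it gave −0.86 for Rel, −0.33 for Rela, −0.48 for Relb, −0.16 for Nfkbia, −0.83 for Nfkbiz and −0.65 for Tnfaip3, all 35 mice gave 0.034 for Nfkb2 and 0.043 for Nfkbid, and Rel was −0.087 under library size, −0.057 for age without sex and −0.0091 in limma-voom. For males against females at P15, Nfkb1 was −0.0069 with all 35 mice, −0.078 under library size, −0.0075 without a filter, −0.013 with 10 counts, −0.013 with the groups alone and −0.029 in limma-voom, and Nfkb2 was −0.029 under library size. At 8 weeks, Nfkbia was 0.025 in limma-voom.

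Leaving out mice turned uncalled values only. For P15 against P6, Nfkb2 ran from −0.066 to 0.057 and Relb from −0.077 to 0.060. From P15 to 8 weeks, Nfkb2 ran from −0.095 to 0.026. From P6 to 8 weeks, Nfkb2 ran from −0.11 to 0.015, Nfkbid from −0.19 to 0.055 and Rel from −0.049 to 0.12. Between the sexes at P15, Nfkb1 ran from −0.085 to 0.12, Nfkb2 from −0.063 to 0.15 and Nfkbia from −0.17 to 0.093. Between the sexes at 8 weeks, Nfkb1 ran from −0.0022 to 0.088, Nfkb2 from −0.0079 to 0.18, Nfkbia from −0.13 to 0.21 and Nfkbid from −0.40 to 0.039.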
